A study of Homo sapiens with 6 samples.

Results

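Desmosomes are spot-like junctions that fasten neighbouring epithelial cells to one another. On the cell surface, desmogleins (DSG) and desmocollins (DSC), both cadherins, bind across the gap between cells. Inside the cell, plakophilins (PKP) and plakoglobin (JUP) join the cadherin tails to desmoplakin (DSP), which holds the keratin filaments, and the tetraspan membrane protein PERP is needed for stable desmosomes in stratified epithelia. The results concern 9 desmosome genes (DSC2, DSC3, DSG2, DSG3, DSP, PKP1, PKP2, PKP3 and PERP), taken by gene symbol from the 26255 symbols measured. All 9 were present, and all 9 averaged 1 FPKM or more, the limit for testing, as did 12040 genes in all.

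The cells were BxPC-3, an established human pancreatic cancer cell line, and RNA was sequenced from 3 groups of 2 libraries. Parent cells had no treatment, NC-1 cells had a negative control treatment, whose sequence the labels do not give, and the third group was treated with the microRNA miR-4711-5p. Per the study's text, treated and control cells were compared 36 h after transfection. All groups share 1 cell line, and the labels do not say whether the 2 libraries of a group came from separate cultures, so p-values measure the spread between these libraries, which may be technical.

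The deposited values are FPKM, in which reads are scaled by gene length and library size, so levels can be compared between genes. The FPKM of a library summed to between 493145 and 550772, lowest in the miR-4711-5p libraries. The number of reads is unknown, but the steps between low values gave estimates of relative depth from 0.751 to 1.21 against the first parent library. As an identity check, all 8 ductal epithelial markers were above 1 FPKM, and their sum was 5910 to 6284 FPKM in parent, 5282 to 5564 in NC-1 and 5223 to 5277 in miR-4711-5p-treated cells. Markers of heart muscle, the other main site of desmosomes, summed to at most 0.170 FPKM in any library. Of 8 fibroblast, 4 endothelial and 6 blood markers, 6, 3 and 6 were under 1 FPKM everywhere. Acinar and endocrine markers, 7 of 8 of them under 1 FPKM everywhere, moved with the groups: they summed to 0.730 to 1.57 FPKM in parent, 2.62 to 2.73 in NC-1 and 3.18 to 5.10 with miR-4711-5p. PRSS1 was the only one of them to reach 1 FPKM in any library. The endothelial sum also differed, with 1.33 to 1.39 FPKM in parent, 3.25 to 3.53 in NC-1 and 0.649 to 0.775 with miR-4711-5p. CDH5 (0.469 to 3.16 FPKM over the libraries) was the only endothelial marker to reach 1 FPKM in any library, and it did not do so with miR-4711-5p. The part of these markers in the results was not tested. In such bulk RNA, fewer cells expressing a gene and less RNA per cell cannot be told apart.

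Because a microRNA recognises messages mainly through bases 2 to 8 from its 5′ end, the seed, its sequence is shown first with the seed in capitals, and then every match of at least 7 bases found in the 9 desmosome genes. The microRNA sequence is from RefSeq (GRCh38.p14, chr1:59733269-59733291, minus strand), and target windows of 30 bases, written 5′ to 3′ on the strand of the gene with the match in capitals, are from GENCODE transcripts on GRCh37, the same build as the hg19 named by the study.
miR-4711-5p: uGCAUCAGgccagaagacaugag
PERP, 3′ UTR, chr6:138412072-138412078: agtttctctgaatagcatatataTGATGCA
DSC2, 3′ UTR, chr18:28645501-28645507: aagacttccaagtaagagtgtctTGATGCA
DSC2, 3′ UTR, chr18:28640249-28640255: agggtgtcaatatacacaagatgTGATGCA
DSC3, coding sequence, chr18:28605867-28605874: ttgtttcttcaacaagttgaatCTGATGCA

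The 3′ UTR matches in PERP and DSC2 are of the kind 7mer-A1, which pairs with bases 2 to 7 and has an A opposite base 1 (TGATGCA). The pair in DSC2 lies in 2 of its 4 coding transcripts. No member had a 3′ UTR match that pairs with base 8 (CTGATGC, the 7mer-m8, or CTGATGCA, the 8mer). A 7mer or 8mer match lay in the longest annotated 3′ UTR of 2 of the 9 genes and of 18.4% of the 11188 tested genes with an annotated 3′ UTR, and when 7mer-A1 matches were left out, of 0 of the 9 and of 11.9%. DSC3 had an 8mer in its coding sequence, in 2 of its 3 coding transcripts. The share of all genes with a match in the coding sequence was not computed. DSG2 had only a 6-base match (TGATGC) in its 3′ UTR, and DSG3, DSC3, DSP and the 3 plakophilins had none there. A match of letters is a description and shows no binding.

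**Figure D1:**
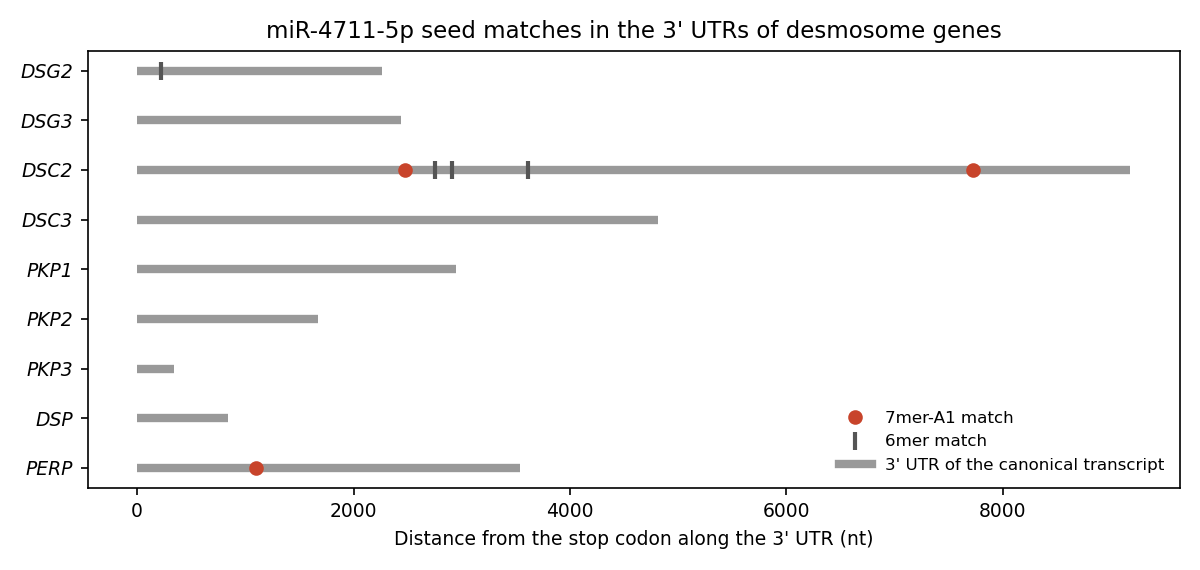
Positions of seed matches of miR-4711-5p along the 3′ UTR of the canonical transcript of each desmosome gene, with the distance from the stop codon in nt on the x axis. Grey bars are the 3′ UTRs, red circles are 7mer-A1 matches and dark ticks are 6mer matches. The 7mer-A1 matches are at 1101 nt in PERP and at 2474 and 7726 nt in DSC2, whose 3′ UTR of 9175 nt is the longest of the 9.

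In parent cells the 9 genes spanned a wide range of levels. PERP was highest with an average of 182 ± 2.64 FPKM (SD, n = 2 libraries, as for all values below), followed by DSG2 with 145 ± 1.29, DSP with 132 ± 6.02 and PKP3 with 90.2 ± 6.91. PKP1 (44.4 ± 1.22), DSC3 (26.1 ± 0.766), DSG3 (20.0 ± 0.665) and PKP2 (14.8 ± 0.250) formed the middle. DSC2 was lowest with 4.18 ± 0.112 FPKM. No neighbours in this order overlapped in their 2 parent libraries. The other desmosomal cadherins, DSC1, DSG1 and DSG4, which are best known from the upper layers of skin and from hair, reached at most 0.120 FPKM in any library, so DSG2, DSG3, DSC2 and DSC3 carried nearly all desmosomal cadherin RNA. All 7 desmosomal cadherin genes lie side by side on chromosome 18 (GRCh37, chr18:28569331-28622781 for DSC3 at one end and chr18:29078140-29128971 for DSG2 at the other). DSP (chr6:7541571-7586947), PERP (chr6:138409642-138428556), PKP1 (chr1:201252580-201302121), PKP2 (chr12:32943679-33049732) and PKP3 (chr11:392614-404908) lie elsewhere.

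With miR-4711-5p, most of the desmosome genes fell. Against parent cells all 9 were called, 8 lower and 1, DSC2, higher. Among all 12040 genes tested 43.4% were called in that comparison, 24.7% lower and 18.7% higher. Against NC-1, 7 of the 9 were called, all lower and 0 higher, where 39.6% of all genes were called, 21.2% lower and 18.4% higher. Both miR-4711-5p libraries were below both parent libraries for 8 of the 9 genes (39.3% of all genes) and above them for 1 (35%), and they were below both NC-1 libraries for 9 of 9 (36.2%). The 7 genes, namely DSG3, PERP, PKP1, DSC3, PKP3, PKP2 and DSG2, were lower in both comparisons, as were 15.4% of all genes, and 0 were higher in both, as were 10% of all genes. The calls are from limma on log2(FPKM + 1), fitted to all genes and libraries with Benjamini-Hochberg adjustment at 0.05. Log2 fold changes and standard errors are on this scale, and percentages are from mean FPKM. The median log2 fold change of the 9 genes was -0.50 against parent and -0.41 against NC-1, and that of all genes tested was -0.01 and 0.0038. Both miR-4711-5p comparisons use the same miR-4711-5p libraries, so they are not independent. With 2 libraries on each side, the smallest two-sided p of an exact permutation test is 0.333, so the calls depend on the variance that limma pools over genes.

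The choice of scale bears on the smaller changes. Scale factors from the median ratio of genes to their geometric mean over the libraries were 1.006 to 1.007 in all 6 libraries. With these factors 8 of the 9 genes were called lower against parent, where 24.8% of all genes were, and 1 higher. Against NC-1, 7 were called lower, where 21.3% of all genes were. Totals gave another picture. When every library was set to the same FPKM total, a choice made after seeing that the totals differed, the median of all genes against parent moved from -0.01 to 0.11 on the log2 scale. The split of all calls against parent changed from 2255 higher and 2975 lower to 4010 higher and 1776 lower. Of the 9 desmosome genes, 7 were then still called lower against parent, where 14.8% of all genes were, and 6 against NC-1, where 17.3% were. The genes no longer called were DSP against parent and PKP3 against NC-1, and the smaller change in DSG2 is given with that gene.

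**Figure D2:**
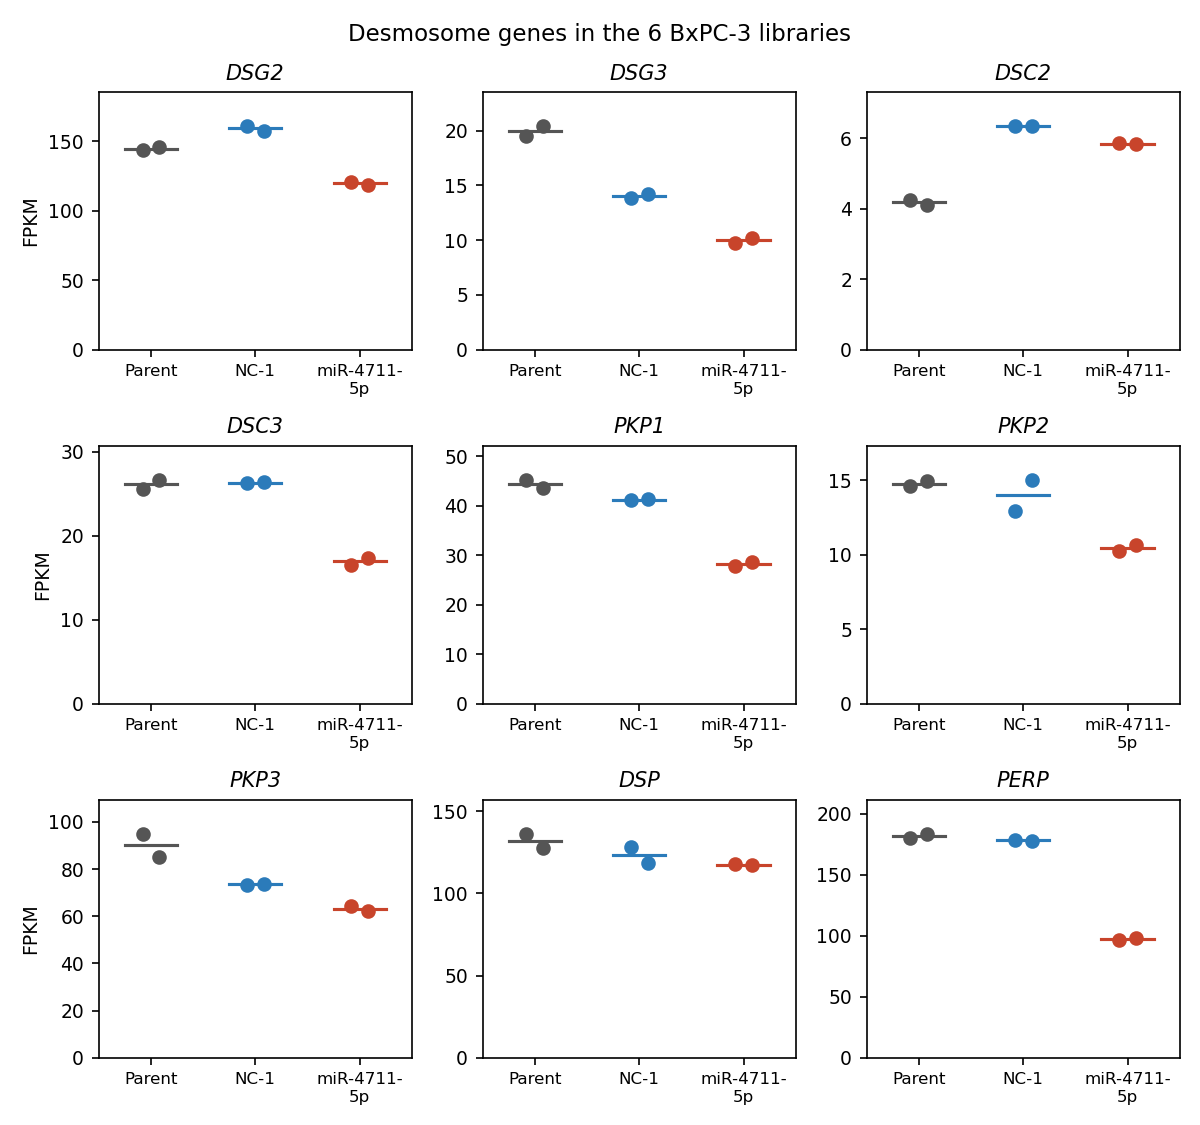
FPKM of the 9 desmosome genes in each of the 6 libraries, 1 panel per gene, with the y axis from 0. Points are libraries and lines are group means of 2 libraries. Both miR-4711-5p libraries are below all 4 control libraries for 8 genes, and for DSC2 they lie between parent and NC-1.

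PERP, a target of p53 and p63 as well as a desmosome component, had 180.0 and 184 FPKM in the parent libraries, 179 and 178 in the NC-1 libraries, and 96.9 and 98.5 in the miR-4711-5p libraries. The 4 control libraries were close together and both treated libraries were far below them. PERP fell by 46.3% against parent (-0.89 on the log2 scale, standard error 0.04, limma adjusted p = 7.50e-06). It fell by 45.2% against NC-1 (-0.86, limma adjusted p = 1.02e-05). NC-1 and parent were not distinguished (-0.03, 95% interval -0.12 to 0.06, limma adjusted p = 0.623). By size of the decrease against parent it was in place 235 of the 12040 genes, and its rank among the 9 levels went from the highest in parent cells to the third. GENCODE lists pseudogenes of PERP, and reads shared with them were not measured.

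DSG3, the desmoglein of basal layers of stratified epithelia and the antigen of pemphigus vulgaris, had 19.5 and 20.5 FPKM in parent, 13.9 and 14.2 in NC-1, and 9.75 and 10.2 with miR-4711-5p. The 3 groups did not overlap, with NC-1 in the middle. DSG3 fell by 50.1% against parent, the largest decrease of the 9 (-0.93 on the log2 scale, standard error 0.06, limma adjusted p = 2.69e-05). NC-1 was itself lower than parent by a log2 fold change of -0.48 (limma adjusted p = 0.00208). Between miR-4711-5p and NC-1 the log2 fold change was -0.46 (limma adjusted p = 0.000802).

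DSG2, the desmoglein of simple epithelia and the most abundant of the 4 cadherins, had 144 and 146 FPKM in parent, 161 and 157 in NC-1, and 121 and 119 with miR-4711-5p. The control treatment and the microRNA lay on opposite sides of parent. NC-1 was higher than parent by a log2 fold change of 0.14 (limma adjusted p = 0.0403, from 0.00904 to 0.130 over the alternatives), and miR-4711-5p was lower by -0.27 (standard error 0.04, limma adjusted p = 0.00162). Against NC-1 the decrease was -0.41 (limma adjusted p = 0.000291). With equal FPKM totals the difference from parent was -0.13 and still called (limma adjusted p = 0.0329, the highest of its 16 alternatives). The call of NC-1 against parent was lost with any 1 of the 6 libraries left out, where the log2 fold change was 0.12 to 0.15 and the adjusted p 0.0706 to 0.130. An antisense gene, DSG2-AS1, overlaps DSG2 and had 7.20 to 11.8 FPKM. The libraries were stranded but the counting option is not stated, so reads of both may not be fully separated.

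DSC3, the desmocollin that accompanies DSG3 in basal layers, had 25.6 and 26.7 FPKM in parent, 26.3 and 26.4 in NC-1, and 16.6 and 17.4 with miR-4711-5p. The control groups overlapped and the treated libraries lay well below both. DSC3 fell by 35.0% against parent (-0.59 on the log2 scale, standard error 0.05, limma adjusted p = 0.000148). It fell by 35.5% against NC-1 (-0.60, limma adjusted p = 0.000160). This is the gene with the 8mer in its coding sequence, and the part of that match in the decrease was not tested.

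DSC2, the widely expressed desmocollin, was the exception. It had 4.26 and 4.10 FPKM in parent, 6.33 and 6.35 in NC-1, and 5.86 and 5.83 with miR-4711-5p. Both treated groups were above parent, and miR-4711-5p was slightly below NC-1. Against parent the log2 fold change was 0.40 for miR-4711-5p (standard error 0.06, limma adjusted p = 0.00248) and 0.50 for NC-1 (limma adjusted p = 0.00292), so DSC2 was also higher after the control treatment alone. The difference between miR-4711-5p and NC-1 was not called, at -0.10 with a 95% interval of -0.25 to 0.05 (limma adjusted p = 0.251). DSC2 is also the gene with a pair of 7mer-A1 matches in its 3′ UTR. At about 5 FPKM its log2 fold changes are understated by the added 1, and its level per length depends on how much of its long 3′ UTR the authors' annotation held, which is not given in the sources used here.

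**Figure D3:**
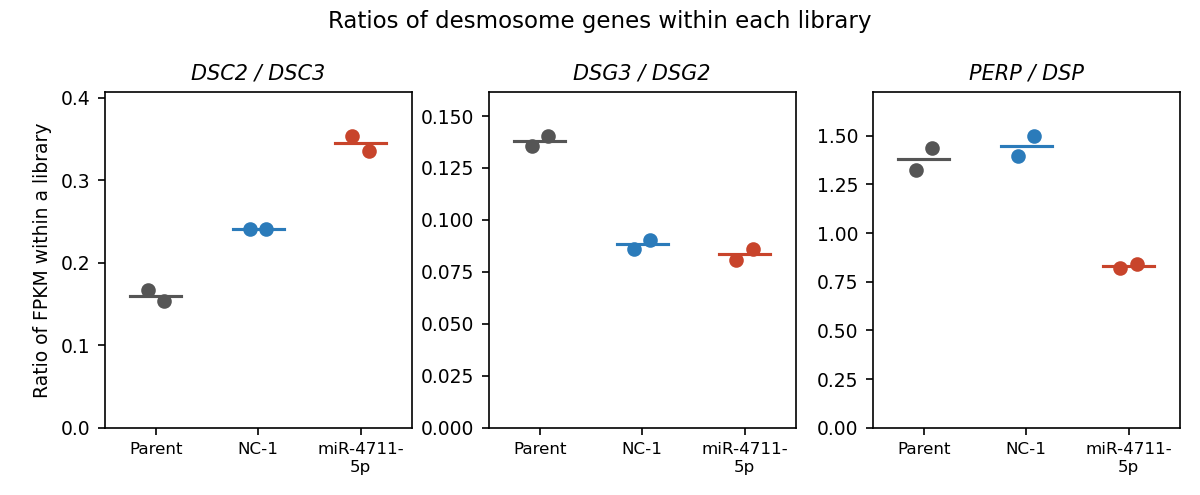
Ratio of the FPKM of DSC2 to DSC3, DSG3 to DSG2 and PERP to DSP within each library (y axis from 0, no unit). Points are libraries and lines are means of 2 libraries. DSC2 to DSC3 rises from parent to NC-1 to miR-4711-5p, DSG3 to DSG2 is lower in NC-1 and miR-4711-5p than in parent, and PERP to DSP is lower with miR-4711-5p alone.

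Ratios within a library do not depend on its scale, and they showed that the cadherins changed unequally. The ratio of DSC2 to DSC3 was 0.166 and 0.154 in the parent libraries, 0.241 in both NC-1 libraries, and 0.354 and 0.335 with miR-4711-5p. The ratio of DSG3 to DSG2 was 0.136 and 0.140 in parent, 0.0861 and 0.0904 in NC-1, and 0.0805 and 0.0862 with miR-4711-5p, where NC-1 and miR-4711-5p overlapped. DSG2 made up 74.4% and 74.0% of the summed FPKM of the 4 cadherins in parent, 77.6% and 77.0% in NC-1, and 79.0% and 78.0% with miR-4711-5p. The share of DSC3 was 13.2% and 13.5% in parent, 12.6% and 12.9% in NC-1, and 10.8% and 11.4% with miR-4711-5p. The share of DSG3 was 10.1% and 10.4% in parent, 6.69% and 6.97% in NC-1, and 6.36% and 6.73% with miR-4711-5p. The larger part of the differences from parent in the DSG2 and DSG3 shares was thus also present in NC-1, and the DSG3 shares of NC-1 and miR-4711-5p overlapped. The sum of the 4 cadherins averaged 195 ± 2.61 FPKM in parent, 206 ± 2.36 in NC-1 and 153 ± 0.839 with miR-4711-5p. These choices of ratio were made after the values were seen.

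The plakophilins, armadillo proteins that cluster cadherins and desmoplakin into the plaque, fell in all 3 cases against parent. PKP1, the plakophilin of stratified epithelia, had 45.2 and 43.5 FPKM in parent, 41.1 and 41.3 in NC-1, and 27.8 and 28.6 with miR-4711-5p. Both treated libraries were well below the 4 controls, and PKP1 fell by 36.5% against parent (-0.64 on the log2 scale, standard error 0.05, limma adjusted p = 6.72e-05). It fell by 31.5% against NC-1 (-0.53, limma adjusted p = 0.000186).

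PKP2, the plakophilin of simple epithelia and heart, had 14.6 and 14.96 FPKM in parent, 12.97 and 15.1 in NC-1, and 10.3 and 10.7 with miR-4711-5p. Its control groups overlapped and the first NC-1 library was the lowest of the 4 controls. The log2 fold change was -0.46 against parent (standard error 0.07, limma adjusted p = 0.00265) and -0.38 against NC-1 (limma adjusted p = 0.00633). Without the first miR-4711-5p library the latter was -0.36 and no longer called (limma adjusted p = 0.0548, the highest of its 16 alternatives).

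PKP3, found in nearly all epithelial desmosomes and the most abundant plakophilin here, had 95.1 and 85.3 FPKM in parent, 73.2 and 73.8 in NC-1, and 64.5 and 62.1 with miR-4711-5p. The 3 groups did not overlap, with NC-1 in the middle as for DSG3. The log2 fold change was -0.50 for miR-4711-5p against parent (standard error 0.06, limma adjusted p = 0.000594) and -0.29 for NC-1 against parent (limma adjusted p = 0.0128, from 0.00579 to 0.0657 over the alternatives). Between miR-4711-5p and NC-1 it was -0.21 (limma adjusted p = 0.0250, from 0.0126 to 0.136 over the alternatives). That call was lost in 7 of 16 alternatives, among them leaving out either NC-1 library (-0.22 and -0.21) or either miR-4711-5p library (-0.24 and -0.19). The call of NC-1 against parent was lost without the first parent library (-0.21) or without either NC-1 library (-0.28 and -0.29).

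DSP, the plakin that ties the plaque to keratin, changed least of the 8 genes that fell. It had 136 and 128 FPKM in parent, 128 and 119 in NC-1, and 118 and 117 with miR-4711-5p. The treated libraries were the lowest, by less than the spread between the libraries of either control group: the higher of them had 117.8 FPKM and the lowest control library 118.7. The log2 fold change was -0.17 against parent (standard error 0.05, limma adjusted p = 0.0411, from 0.0292 to 0.669 over the alternatives) and -0.07 against NC-1 (95% interval -0.20 to 0.05, limma adjusted p = 0.324). The call against parent was lost in 6 of 16 alternatives. Among these were equal FPKM totals (-0.029), no filter on low values and no variance trend (both -0.17). The others left out the first parent library (-0.12) or either miR-4711-5p library (-0.17 and -0.16). The ratio of PERP to DSP was 1.32 and 1.44 in parent, 1.39 and 1.499 in NC-1, and 0.823 and 0.843 with miR-4711-5p.

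**Figure D4:**
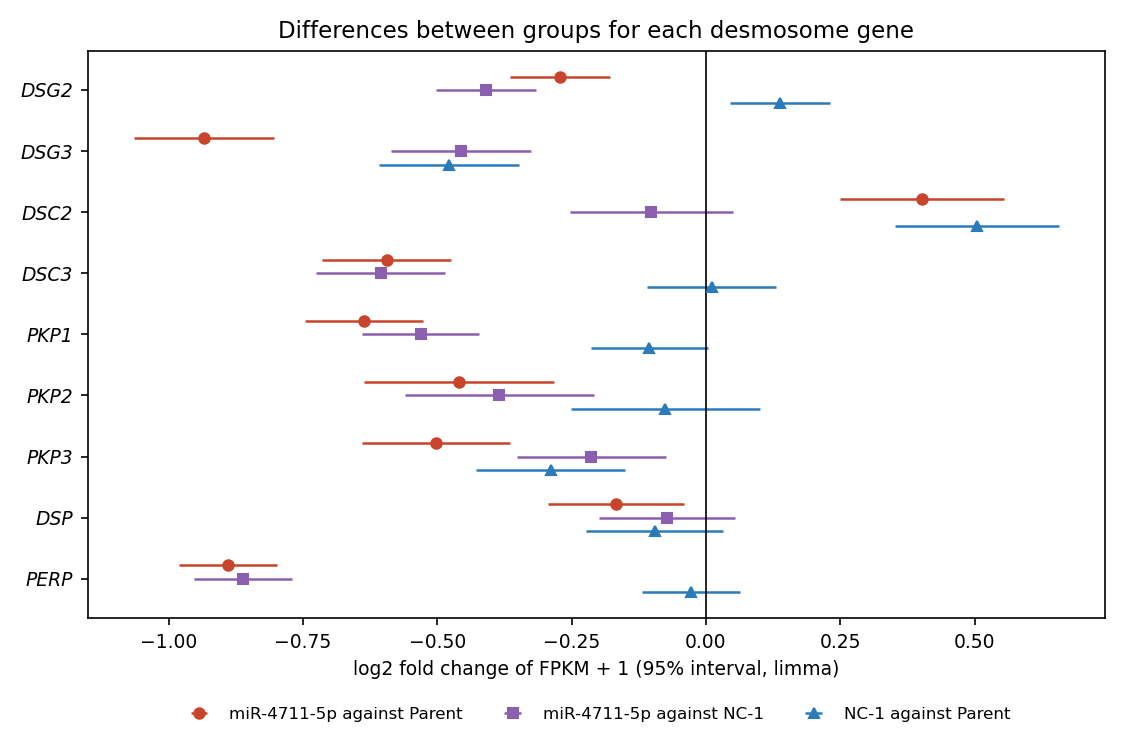
Log2 fold change of FPKM + 1 (x axis) of each desmosome gene in 3 comparisons, with bars for the 95% interval of limma. Red circles are miR-4711-5p against parent, purple squares miR-4711-5p against NC-1 and blue triangles NC-1 against parent. PERP, DSC3 and PKP1 have long decreases against both controls and intervals that reach 0 for NC-1 against parent, and DSC2 has its rise in both comparisons with parent.

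Between NC-1 and parent 4 of the 9 genes were called, DSC2 and DSG2 as higher and DSG3 and PKP3 as lower in NC-1. Among all genes tested, 27.2% were called in that comparison, 15.1% lower and 12.1% higher. Both NC-1 libraries were below both parent libraries for 4 genes (34.2% of all genes) and above them for 2 (31.3%). For PERP, DSC3, PKP1, PKP2 and DSP the difference was not called, with log2 fold changes from -0.11 (PKP1, 95% interval -0.21 to 0.0040) to 0.01 (DSC3, -0.11 to 0.13). The sum of the 9 genes was 664 and 652 FPKM in parent, 642 and 631 in NC-1, and 470.4 and 469 with miR-4711-5p. The order of levels also differed: PKP2 was below DSG3 in parent, both overlapped in NC-1, and PKP2 was above DSG3 with miR-4711-5p, by 10.3 and 10.7 against 9.75 and 10.2 FPKM.

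Of 10 further genes tied to desmosomes, 6 were tested, and 4 of them (JUP, PPL, EVPL and PKP4) were called lower in both miR-4711-5p comparisons, as were 15.4% of all genes. JUP, the plakoglobin that desmosomes and adherens junctions share, had 230 and 211 FPKM in parent, 190.4 and 193 in NC-1, and 148 and 145 with miR-4711-5p. Its groups did not overlap, and it fell by 33.6% against parent (-0.59 on the log2 scale, limma adjusted p = 0.000137). It fell by 23.7% against NC-1 (-0.39, limma adjusted p = 0.00101). JUP was also called lower in NC-1 than in parent (-0.20, limma adjusted p = 0.0261). That call was lost in 9 of 16 alternatives, among them equal FPKM totals (-0.11, limma adjusted p = 0.109). Leaving out the first parent library (-0.14), either NC-1 library (-0.19 and -0.21) or either miR-4711-5p library (both -0.20) also lost it. PPL and EVPL, the plakins periplakin and envoplakin, had log2 fold changes of -1.04 and -0.64 against parent and -0.97 and -0.56 against NC-1 (limma adjusted p = 1.44e-05, 0.000727, 2.23e-05 and 0.00145).

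PPL had 129 and 119.8 FPKM in parent, 122 and 115 in NC-1, and 60.1 in both miR-4711-5p libraries. PPL fell by 51.8% against parent, more than any of the 9 genes. PKP4, a plakophilin-related protein of several junctions, had log2 fold changes of -0.38 and -0.50 (limma adjusted p = 0.00106 and 0.000371). PNN, or pinin, which was first described at desmosomes and acts mainly in splicing in the nucleus, was called higher than in parent (0.39, limma adjusted p = 0.00158). It was also called higher than in NC-1 (0.19, limma adjusted p = 0.0362, from 0.0138 to 0.163 over the alternatives), a call lost with any 1 library left out except the first NC-1 library. PNN was called higher in NC-1 than in parent as well (0.21, limma adjusted p = 0.0358), a call lost in 9 of 16 alternatives. KAZN was not called (0.10 and 0.02), and DSC1, DSG1, DSG4 and CDSN were under 1 FPKM on average.

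Keratins form the filaments that desmosomes anchor. Of 12 keratins, 9 were called lower and 1, KRT18, higher in both miR-4711-5p comparisons, as were 15.4% and 10% of all genes. The median of the list was -0.87 against parent and -0.67 against NC-1 on the log2 scale. On the log2(FPKM + 1) scale against parent, KRT13, KRT6A and KRT5 had the largest changes, with -1.90, -1.47 and -1.37, and they had -1.30, -0.81 and -0.78 against NC-1. Against NC-1, KRT17 (-1.16) and KRT16 (-0.95) changed more than KRT6A and KRT5. KRT16 had only 0.406 to 1.94 FPKM in the 6 libraries, near the limit for testing. KRT13, KRT6A and KRT5, keratins of stratified epithelium, were also lower in NC-1 than in parent, by -0.59, -0.66 and -0.59 (limma adjusted p = 0.00254, 0.000419 and 0.00109). KRT17 and KRT16, of the same epithelia, were called higher in NC-1 than in parent (0.28 and 0.44, limma adjusted p = 0.0256 and 0.0389). The keratins of simple epithelium did not share a direction. KRT19 was called lower against parent and NC-1 (-0.85 and -0.50, limma adjusted p = 2.58e-05 and 0.000337), and KRT7, KRT8 and KRT18 had -0.09, -0.09 and 0.19 against parent, of which KRT18 was called. Against NC-1 all 12 keratins were called, 10 lower and 2 (KRT8 and KRT18) higher. Of all genes 39.6% were called in that comparison, 21.2% lower and 18.4% higher.

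Of the 6 hemidesmosome genes, which fasten cells to the basement membrane, 4 were called lower in both comparisons. ITGA6 and ITGB4, the integrin subunits, had log2 fold changes of -1.06 and -0.86 against parent and -0.39 and -0.70 against NC-1, and the collagen COL17A1 had -0.79 and -0.68. ITGA6 was also lower in NC-1 than in parent (-0.67, limma adjusted p = 0.000616). Of 10 adherens junction genes, 7 were lower in both comparisons. CDH1 (E-cadherin), PVRL1 (nectin 1) and CTNND1 (p120 catenin) had -1.93, -1.17 and -0.52 against parent and -1.85, -1.03 and -0.60 against NC-1. Of 11 tight junction genes tested, 1 (F11R) was lower and 2 (CGN and CLDN4) were higher in both comparisons, near the shares over all genes (15.4% lower and 10% higher), with a median of 0.04 against parent. CGN, or cingulin, had 1.02 and CLDN4, a claudin, 0.72 against parent, and they had 0.53 and 0.45 against NC-1. Both were also called higher in NC-1 than in parent (0.50 and 0.28, limma adjusted p = 0.00683 and 0.00863). In that comparison 6 of the 11 tight junction genes were called higher and 2 lower (12.1% and 15.1% of all genes). With equal FPKM totals, 4 adherens junction genes rather than 7 were called lower against parent and 3 rather than 2 higher. For tight junction genes 0 rather than 1 were lower and 7 rather than 5 higher, where 4010 of all 12040 genes were higher. Of the hemidesmosome genes, 4 rather than 5 were then lower against parent and 3 rather than 4 against NC-1 (14.8% and 17.3% of all genes).

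**Figure D5:**
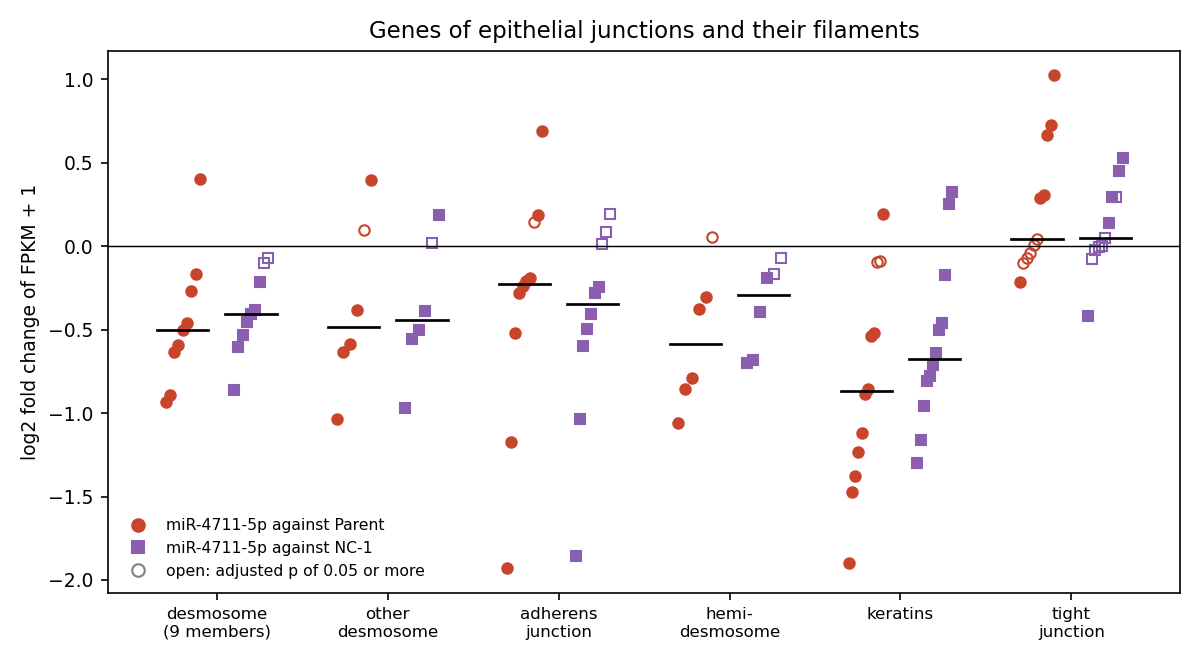
Log2 fold change of FPKM + 1 (y axis) of each tested gene in 6 lists of junction and filament genes, for miR-4711-5p against parent (red circles) and against NC-1 (purple squares). Filled points have an adjusted p under 0.05 and black lines are medians. The medians are below 0 for all lists except tight junctions, for which they are 0.04 and 0.05.

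Among 18 genes listed as regulators or sheddases of desmosomes, 16 were tested, and 4 were lower (KLF5, TP63, ESRP1 and ELF3) and 1 was higher (KLF4) in both comparisons, beside 15.4% and 10% of all genes. TP63, the gene of p63, a transcription factor of stratified epithelia, had 60.2 and 67.1 FPKM in parent, 55.0 and 60.1 in NC-1, and 39.0 and 36.6 with miR-4711-5p. The treated libraries were below all controls, and the log2 fold change was -0.73 against parent and -0.59 against NC-1 (limma adjusted p = 0.000241 and 0.000731). KLF5 had -0.91 and -0.89, and ESRP1, an epithelial splicing factor, had -0.68 and -0.72. Between NC-1 and parent, ELF3 and KLF4 were also called, at -0.28 and 0.30 (limma adjusted p = 0.0272 and 0.0182), and KLF5, TP63 and ESRP1 were not. GRHL2, a further factor of epithelial differentiation, was not called against parent (-0.14, limma adjusted p = 0.0876) and was called lower against NC-1 (-0.21, limma adjusted p = 0.0229). ADAM10 and ADAM17, proteases that can shed desmoglein 2, went against parent by -0.06 and 0.32, of which ADAM17 was called (limma adjusted p = 0.00841), and NC-1 went against parent by 0.21 and 0.30. Against NC-1 the log2 fold changes were -0.28 for ADAM10, called lower (limma adjusted p = 0.00617), and 0.02 for ADAM17, not called.

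Patterns over the 6 libraries were compared by the root mean square difference of log2(FPKM + 1), each gene set relative to its parent mean, among genes with a mean of 10 FPKM or more (6647 for 8 of the members and 6648 for DSC2). The nearest genes to PERP were SLPI, a secreted protease inhibitor (0.0353), and TMPRSS4, a membrane serine protease (0.0406). The nearest to DSG3 were CMIP (0.0387) and RETSAT (0.0498), and the nearest to DSC2 were ITGA2, the integrin alpha 2 subunit (0.0387), and AVL9 (0.0452). DSC3 was nearest to TXN (0.0191), PKP1 to CHMP2A (0.0220), PKP2 to SH3BGRL3 (0.0204), PKP3 to EPS8L2 (0.0170), DSG2 to PPP1R26 (0.00594) and DSP to POLDIP3 (0.0125). No desmosome gene was the nearest to another. The closest pair was DSC3 and PKP1 (0.0785), and PKP1 was in place 75 among the genes nearest to DSC3.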

How the data were processed

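Stranded mRNA libraries of 6 BxPC-3 samples were analysed. Per the submitters' processing notes, reads were mapped to hg19 with TopHat2 2.1.1, Bowtie2 2.3.5.1 and SAMtools 1.2; the study's methods name other versions of these. The authors calculated FPKM per gene symbol with Cuffnorm (Cufflinks 2.2.1), which normalizes for gene length and library size. The annotation, strand and normalization options are not given in the sources used here. The authors' own fold changes were not used.

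Genes averaging 1 FPKM or more were tested on log2(FPKM + 1) with limma 3.58.1 in R 4.3.3 (eBayes with a trend, all 3 groups in 1 fit, 3 residual and 4.15 prior degrees of freedom), and the step was tested on simulated data. Count models need reads and were not applied; precision is limited by 2 libraries per group. Seed matches were searched in GENCODE v44 transcripts on GRCh37. Of the tested genes 10599 matched by symbol, 595 by an older symbol from RefSeq and 846 not at all. Other steps used Python 3.11.15, pandas 2.3.3 and matplotlib 3.10.9.

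The 9 genes and all gene lists were chosen with earlier results of these data known. All 9 are named; of each comparison list, up to 3 genes called in the same direction in both miR-4711-5p comparisons, with the largest changes against parent, are named. Other genes of the lists (KRT6B, KRT7, KRT8, KRT14, KRT16, KRT17, KRT18, KRT19, ELF3, KLF4, GRHL2, ADAM10 and ADAM17) were named after their values were seen. Alternatives were other pseudocounts, filters, scales, variance models, samples, a 1.5-fold limit, a replicate block and leaving out each library.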

Additional observations from a re-analysis of the deposited data

How the results depend on the processing

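Against parent, between 8 and 9 of the 9 desmosome genes were called with any 1 library left out, and against NC-1 between 5 and 7, of 9 and 7 in full. For NC-1 against parent the number was 4 in full and 2 to 3 with any 1 library left out, with 2 without the first parent library or without either NC-1 library. With a further limit of 1.5-fold the numbers were 4, 2 and 1 in the same order of comparisons. The shares of all genes with that limit, or with a library left out, were not computed, so these numbers have no background beside them. Under other pseudocounts, filters, scales and variance models the numbers stayed at 8 to 9, 6 to 7 and 3 to 4. No 3′ UTR match remained when 7mer-A1 matches were not counted (0 of 9). Some differences that were not called turned in direction. For NC-1 against parent with equal FPKM totals these were PKP2 (0.0044), PERP (0.057), EVPL (0.0042) and PPL (0.014). With single libraries left out, DSC3 (-0.018 to 0.040), PKP2 (-0.18 to 0.025), EVPL (-0.16 to 0.0039) and KAZN (-0.049 to 0.21) did so for NC-1 against parent, and KAZN against parent (-0.029 to 0.23) and against NC-1 (-0.025 to 0.065). The cause was not tested. The labels do not say whether libraries with the same replicate number in different groups were handled together. The correlation of deviations from group means was -0.0089 to 0.061 between groups, which cannot show whether they were. With a replicate block 9, 7 and 3 of the desmosome genes were called, DSG2 being lost for NC-1 against parent (limma adjusted p = 0.0621). PNN was lost with the block against NC-1 and for NC-1 against parent, and no other call on the 9 genes or the further desmosome genes changed. Depth in reads is unknown, and among the 9 genes PKP2 had the largest standard error (0.075 on the log2 scale).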
